A study of Homo sapiens with 9 samples.

Results

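The EGR and NR4A genes are immediate early transcription factors, and they are described here with NAB1 and NAB2, the cofactors that bind EGR proteins. The 8 genes are EGR1, EGR2, EGR3, NR4A1, NR4A2, NR4A3, NAB1 and NAB2. They were chosen by name from the 26475 gene rows of the count table, after earlier results of these data had been seen, so their differences from control are given as a description and carry no test. The series sequenced RNA of MDA-MB-231, a triple-negative human line from a breast adenocarcinoma, in 9 libraries that form 3 groups of 3 separate batches. Control cells were stably transduced with the empty pLKO.1 vector and received no treatment. Knockdown cells were stably transduced with pLKO.1 carrying a hairpin against ACSL4, the enzyme that attaches coenzyme A to long-chain polyunsaturated fatty acids. The PRGL493 group was the empty-vector control cells given PRGL493, an ACSL4 inhibitor, at a dose and for a time not given in the sources used here, which also name no vehicle. All 3 groups therefore carry a pLKO.1 vector, the knockdown is labelled with a single hairpin construct, and no second cell line was included. The p-values cover only how these batches spread within each engineered population.

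EGR proteins are zinc finger factors that bind GC-rich sites. Their genes are switched on within minutes of growth factor or stress signals, in large part through the kinase ERK, which acts on serum response factor and its ternary complex partners at the CArG boxes of their promoters. NR4A proteins are orphan nuclear receptors whose genes respond as quickly, through CREB and MEF2 factors as well as ERK. NAB proteins dock on EGR1, EGR2 and EGR3 and repress their targets, and NAB2 is itself a described EGR target, so the pair acts as a brake on EGR output. EGR1 has been described both as a growth suppressor and as a promoter of invasion in breast cancer cells.

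Library totals ran from 28673940 to 43027217 counts. ACSL4 itself, the gene targeted by the hairpin, averaged 349 CPM in control, 27.0 CPM in knockdown and 348 CPM in PRGL493 libraries. CPM are counts scaled to a common library total, with TMM factors for composition. The knockdown value was lower than control (log2 fold change -3.69 ± 0.07 SE, edgeR quasi-likelihood adjusted p = 6.04e-16), and no difference was detected with PRGL493 (-0.01 ± 0.06, adjusted p = 0.952). The labelled cell type was checked on markers. All 7 genes listed for a basal or mesenchymal line were expressed, with a summed level of 5962 to 6312 CPM over the 9 libraries. They include the keratins KRT8 (group means 368 to 472 CPM) and KRT18 (363 to 406 CPM), which are not specific to such lines. Of the luminal list ESR1, PGR and FOXA1 averaged at most 0.100 CPM in any group. The rest of the luminal list was nevertheless present. KRT19, often used as a luminal keratin, was at 361 to 529 CPM. GATA3 averaged 11.1, 14.2 and 14.4 CPM and CDH1 2.02, 1.60 and 0.659 CPM in control, knockdown and PRGL493. Of the leukocyte genes PTPRC and CD3E averaged at most 0.0425 CPM, but CD14 averaged 26.1, 37.1 and 21.0 CPM in control, knockdown and PRGL493. The summed leukocyte list, nearly all of it CD14, was 23.9 to 28.6 CPM in control, 33.9 to 41.1 CPM in knockdown and 19.7 to 22.3 CPM in PRGL493 libraries. Fibroblast markers summed to 15.3 to 20.0, 13.4 to 16.8 and 7.96 to 9.93 CPM, nearly all from COL1A1, with DCN at or near 0, and endothelial markers stayed at 1.28 to 3.32 CPM. These marker differences move with the groups, and their part in the results was not tested. In bulk RNA, fewer cells that express a gene and less RNA per cell cannot be told apart.

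Promoter sequences show where the known inputs of these genes could act. RefSeq start-site windows (GRCh38.p14, 250 bases before to 50 after a start) matched 6 of the 8 genes, EGR3 and NR4A2 being the exceptions. The 3 stretches and the site below were printed because they hold the densest matches to the immediate early elements in EGR1, EGR2 and NR4A3, and an EGR-type site in NAB2. They run 5′ to 3′ on the gene's own strand, and capitals mark the matched letters. The stretches are EGR1 at chr5:138465229-138465478 (plus strand), EGR2 at chr10:62816367-62816616 (minus strand, the third of 3 annotated starts), NR4A3 at chr9:99821635-99821854 (plus strand) and NAB2 at chr12:57089042-57089071 (plus strand).
EGR1: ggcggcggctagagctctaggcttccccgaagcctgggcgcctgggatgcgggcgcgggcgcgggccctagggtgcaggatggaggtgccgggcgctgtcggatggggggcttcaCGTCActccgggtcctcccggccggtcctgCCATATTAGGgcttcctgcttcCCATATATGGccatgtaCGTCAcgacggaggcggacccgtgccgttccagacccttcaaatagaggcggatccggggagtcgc
EGR2: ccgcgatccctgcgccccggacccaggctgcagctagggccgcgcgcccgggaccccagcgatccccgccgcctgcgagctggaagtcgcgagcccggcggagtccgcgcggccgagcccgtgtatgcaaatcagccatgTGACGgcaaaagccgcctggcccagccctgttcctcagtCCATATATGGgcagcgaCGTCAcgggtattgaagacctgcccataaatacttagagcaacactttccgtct
NR4A3: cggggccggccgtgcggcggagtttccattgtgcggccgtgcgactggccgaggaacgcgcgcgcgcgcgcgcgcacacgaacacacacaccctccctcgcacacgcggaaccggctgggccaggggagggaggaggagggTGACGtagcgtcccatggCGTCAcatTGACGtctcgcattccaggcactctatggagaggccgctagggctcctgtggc
NAB2: tgtgcgtcctGCGGGGGCGgaggcgcggag
In EGR1 the 10-letter capitals are CArG boxes, the binding element of serum response factor, which began 105 and 83 bases before the start. The shorter capitals are the core TGACG of the cyclic AMP response element, which CREB binds, or CGTCA where it lies on the other strand. In EGR2 a CArG box began 71 bases before the third start, between cores at 110 and 54 bases. In NR4A3 there were 4 cores, at 109, 91, 83 and 25 bases before the start, and the last of them lies past the end of the letters shown. In NAB2 the capitals are GCGGGGGCG, a form of the EGR site, which began 62 bases before the annotated start.

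Both strands of all 35116 RefSeq windows were searched for the same motifs, which gives the share found by letters alone. A CArG box was in 1.29% of windows, and 2 or more, as in EGR1, in 0.0313%. TGACG was in 24.6% of windows, 2 or more in 6.02% and 4 or more, as in NR4A3, in 0.313%. GCGGGGGCG was in 5.07% and GCGTGGGCG, another EGR site, in 0.795%. NAB1 held 2 overlapping copies of GCGGGGGCG on the other strand, beginning 42 and 36 bases before its first start, and a GCGTGGGCG 14 bases after it. The NAB1 windows for the first and second start overlap and share these matches. EGR4 held 2 TGACG cores, on the other strand. No motif of the set, which also included TGACGTCA, AAAGGTCA (the NR4A monomer site) and CCGGAAG (an ETS core), was found in either NR4A1 window or in the first and second EGR2 windows. TGACG is part of TGACGTCA, so matches to that pair can overlap, and GCGGGGGCG and GCGTGGGCG can overlap each other. A match is a run of letters, not a bound site, and a window without one says only that these letters are not in it.

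**Figure D1:**
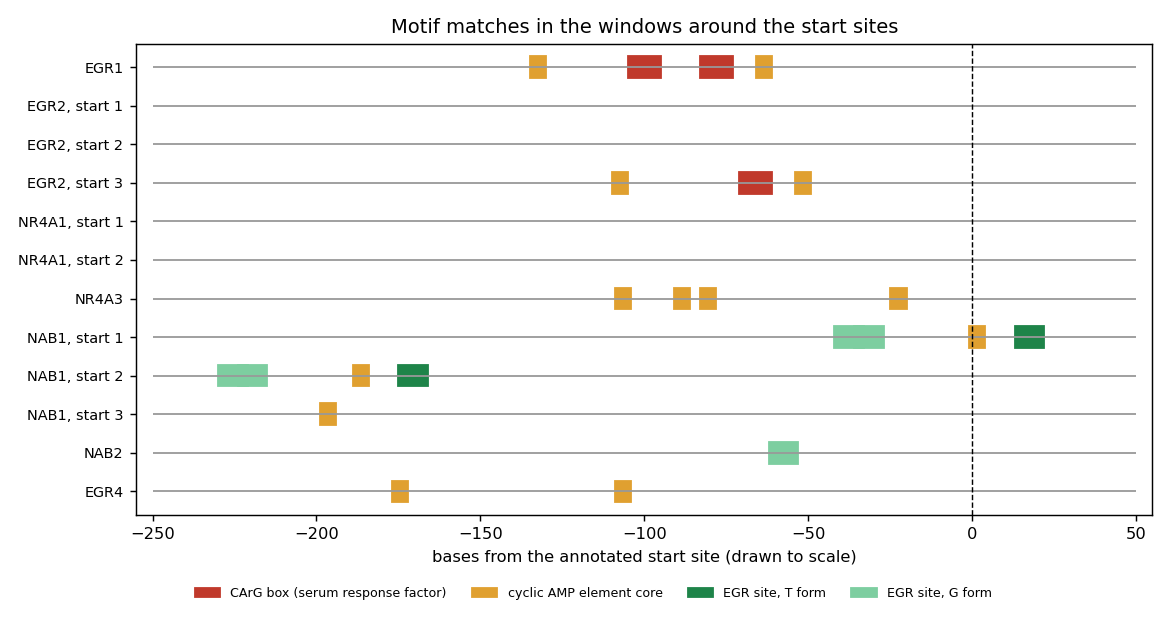
Position of motif matches in the RefSeq windows of 6 of the genes and of EGR4, drawn as bases from each annotated start (dashed line). CArG boxes appear in EGR1 and at the third EGR2 start, and EGR-type sites in NAB1 and NAB2. Both NR4A1 windows are empty, and NR4A1 sequence outside them was not searched. The shortest marks are the core TGACG.

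EGR1 was by far the most abundant of the 8 genes and was much lower in knockdown than in control libraries. EGR1, the prototype of its family, lies on chromosome 5 from 138465490 to 138469315 (GRCh38, GENCODE 29, plus strand). Control libraries read 1918, 1859 and 1917 CPM, knockdown libraries 238, 161 and 219 CPM, and PRGL493 libraries 966, 1012 and 921 CPM. Each group kept to a range of its own, with PRGL493 in the middle. The share of all genes whose groups separate was not computed, so nothing is read from separation here or below. In control cells EGR1 ranked 33rd by CPM among the 14135 genes tested and took 0.188% ± 0.00409 (SD, n = 3) of all counts. It took 0.0209% ± 0.00422 (n = 3) in knockdown and 0.0966% ± 0.00422 (n = 3) in PRGL493 libraries. The group means, 1898 ± 34.1, 205.9 ± 40.2 and 966.3 ± 45.7 CPM (SD, n = 3), put knockdown at 10.8% and PRGL493 at 50.9% of control. The log2 fold change was -3.20 ± 0.13 (SE) in knockdown and -0.97 ± 0.12 with PRGL493. These levels rested on 57285 to 62725 counts per control library and still 6100 to 10428 per knockdown library.

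EGR2, which is best known for its part in myelination and hindbrain patterning, was lower still in proportion. EGR2 read 24.2, 22.6 and 22.2 CPM in control, 1.16, 1.00 and 1.23 CPM in knockdown and 8.29, 8.29 and 7.78 CPM in PRGL493 libraries. Again the groups did not overlap. The knockdown mean was 4.93% and the PRGL493 mean 35.3% of control, with log2 fold changes of -4.34 ± 0.11 and -1.50 ± 0.08 (SE). The knockdown values rested on 38 to 51 counts per library. The gene lies on chromosome 10 from 62811996 to 62919900, minus strand.

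EGR3, which is induced with EGR1 and shares many of its sites, showed the largest differences from control of the 8 genes in knockdown. EGR3 read 26.6, 25.8 and 29.8 CPM in control, 0.639, 0.184 and 0.564 CPM in knockdown and 5.16, 5.35 and 5.02 CPM in PRGL493 libraries. The knockdown mean was 1.69% of control and the PRGL493 mean 18.9%. The log2 fold changes were -5.85 ± 0.18 and -2.41 ± 0.13 (SE). Only 28, 7 and 22 counts stood behind the knockdown values, and without knockdown replicate 2 the log2 fold change against control was -5.50. The gene lies on chromosome 8 from 22687659 to 22693302, minus strand, and shares 164 exonic bases with a transcript on the other strand, AC055854.1. Whether counting used the strand is not given in the sources used here, so reads in shared bases cannot be assigned.

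EGR4, the family member outside the chosen 8, lacks a NAB docking domain. It was listed with earlier results of these data known, so its adjusted p-values are a description and not a test. Its level was 6.42, 6.46 and 4.68 CPM in control, 0.342, 0.132 and 0.128 CPM in knockdown, and 1.09, 1.40 and 1.49 CPM in PRGL493 libraries. EGR4 fell in knockdown (log2 fold change -4.80 ± 0.27 SE, edgeR adjusted p = 1e-09) and with PRGL493 (-2.15 ± 0.21, adjusted p = 6.21e-07). No library of one group reached the range of another. The knockdown level rested on 15, 5 and 5 counts, and without knockdown replicate 1 the change was -5.45.

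**Figure D2:**
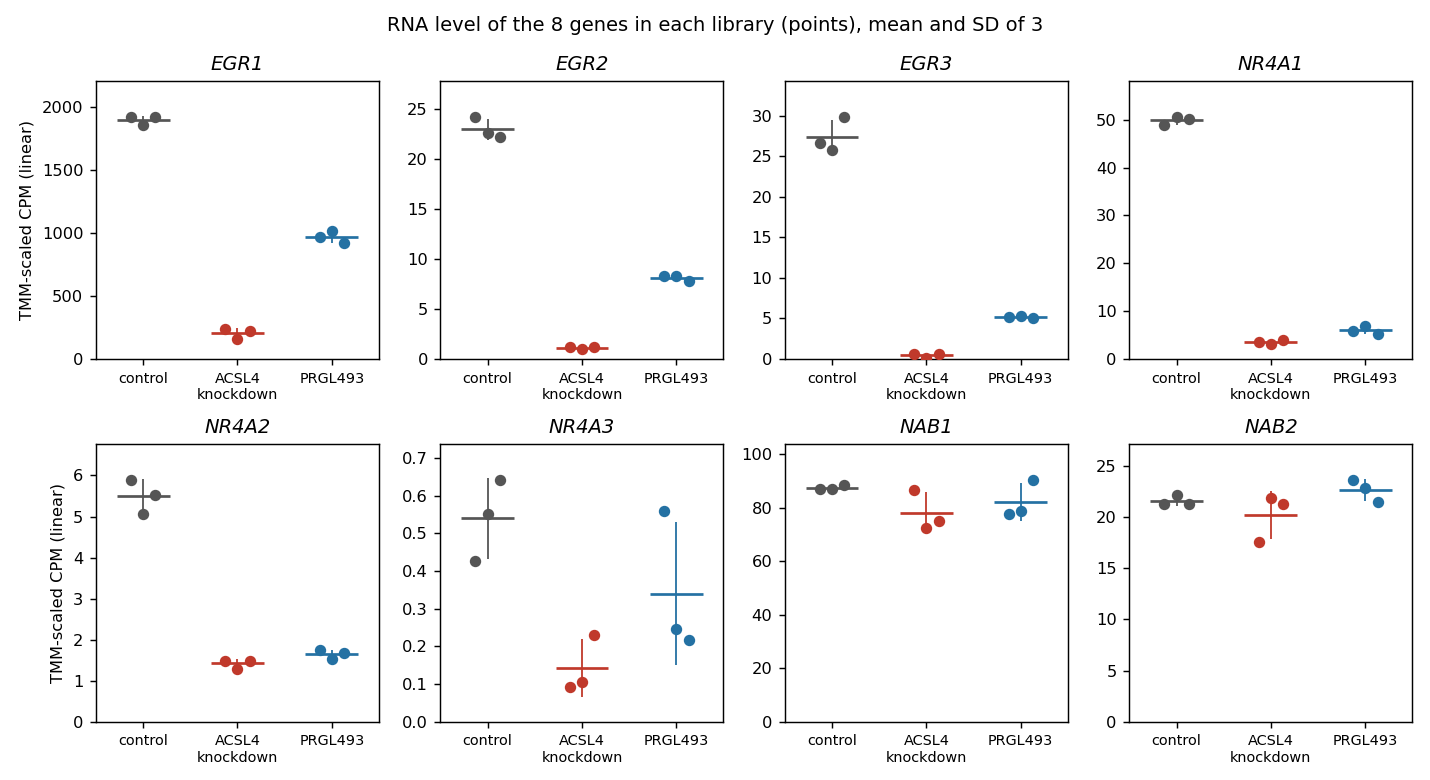
TMM-scaled CPM of each of the 8 genes in each library on linear axes that start at 0, with points for libraries, horizontal lines for group means and vertical lines for the SD of 3. EGR1 has means of 1898 CPM in control, 205.9 CPM in knockdown and 966.3 CPM with PRGL493, while NAB1 and NAB2 stay near their control levels.

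NR4A1 was low in both treated groups, and PRGL493 brought it nearly as low as the hairpin did. NR4A1, the best studied orphan receptor of the family and a regulator of apoptosis and metabolism, read 48.8, 50.5 and 50.2 CPM in control libraries. It read 3.58, 3.19 and 3.90 CPM in knockdown and 5.84, 6.99 and 5.33 CPM in PRGL493 libraries. The 3 groups did not overlap, but the treated groups lay close together and far below control. Knockdown stood at 7.13% and PRGL493 at 12.1% of the control mean, with log2 fold changes of -3.81 ± 0.10 and -3.05 ± 0.09 (SE). NR4A1 lies on chromosome 12 from 52022832 to 52059507, plus strand, and shares 754 exonic bases with AC025259.3 on the other strand, so its counts carry the same doubt about strand.

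NR4A2, known for its part in dopamine neurons, followed the same order of groups at a lower level. NR4A2 read 5.89, 5.06 and 5.53 CPM in control, 1.48, 1.29 and 1.49 CPM in knockdown and 1.75, 1.54 and 1.67 CPM in PRGL493 libraries. Every treated library lay under every control library, and the lowest PRGL493 library lay just above the highest knockdown library. The means were 25.8% and 30.1% of control, and the log2 fold changes -1.95 ± 0.14 and -1.72 ± 0.14 (SE). The gene lies on chromosome 2 from 156324432 to 156342348, minus strand.

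NR4A3 was close to the limit of measurement. NR4A3, the third orphan receptor of the family, read 0.426, 0.552 and 0.642 CPM in control, 0.0912, 0.105 and 0.231 CPM in knockdown and 0.559, 0.245 and 0.217 CPM in PRGL493 libraries, which is 13, 17 and 21, then 4, 4 and 9, then 23, 7 and 7 counts. Knockdown libraries lay below all control libraries, whereas PRGL493 replicate 1 lay within the control range and the other PRGL493 libraries below it. The log2 fold changes were -1.91 ± 0.47 and -0.60 ± 0.41 (SE). Without PRGL493 replicate 1 the PRGL493 change was -1.23, and without knockdown replicate 3 the knockdown change was -2.42. NR4A3 passed the filter on low counts through the control group: 3 control, 0 knockdown and 1 PRGL493 libraries lay above its limit of 0.303 CPM. A gene that passes in that way had to be higher in control. All 8 genes passed the filter, and EGR4 and EGR3 had 1 and 2 of 3 knockdown libraries above the limit. NR4A3 lies on chromosome 9 from 99821855 to 99866891, plus strand.

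The corepressors NAB1 and NAB2 stayed close to control while the EGR genes did not. NAB1 read 87.2, 86.9 and 88.4 CPM in control, 86.8, 72.4 and 75.2 CPM in knockdown and 77.5, 78.8 and 90.4 CPM in PRGL493 libraries. Of the knockdown libraries replicate 1 lay just below the control range and the others further below it, the lowest at 82.7% of the control mean, and the PRGL493 libraries on either side of it. The log2 fold changes were -0.16 ± 0.07 (95% interval -0.30 to -0.02) and -0.09 ± 0.07 (-0.23 to 0.05). Neither was called, but leaving out knockdown replicate 1 made the knockdown difference a call at -0.24. NAB1 lies on chromosome 2 from 190646746 to 190692766, plus strand, and shares 186 and 10 exonic bases with AC006460.1 and AC006460.2 on the other strand.

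NAB2 read 21.3, 22.1 and 21.3 CPM in control, 17.5, 21.8 and 21.3 CPM in knockdown and 23.6, 22.8 and 21.5 CPM in PRGL493 libraries. Both treated groups overlapped control. The log2 fold changes were -0.10 ± 0.08 (95% interval -0.26 to 0.07) and 0.07 ± 0.08 (-0.09 to 0.23), so a fall of the size seen for the EGR genes lies outside both intervals. The knockdown value came from replicate 1 and was 0.00 without it. NAB2 lies on chromosome 12 from 57088894 to 57095476, plus strand, and shares 69 exonic bases with STAT6 on the other strand. STAT6, a cytokine signalling factor, averaged 107.6, 97.79 and 127.1 CPM in control, knockdown and PRGL493. It rose with PRGL493 (log2 fold change 0.24 ± 0.05 SE, edgeR adjusted p = 0.00156) and was not called in knockdown (-0.14 ± 0.05, adjusted p = 0.0582). Its part in the NAB2 counts was not tested.

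Counted over the 8 genes, 6 were called lower and 0 higher in knockdown against control, where 15.3% of all 14135 tested genes were called lower and 14.7% higher. With PRGL493 against control 5 were called lower and 0 higher, where 20.4% of all genes were lower and 21.4% higher. Because the genes were proposed with these contrasts known, nothing is read from the counts. The knockdown calls took in all 6 EGR and NR4A genes, the PRGL493 calls left out NR4A3, and neither NAB gene was called in either. Ranked from the lowest log2 fold change of all genes, EGR3, EGR2, NR4A1 and EGR1 stood 4th, 6th, 7th and 16th in knockdown. With PRGL493, NR4A1 stood 18th, EGR3 31st, NR4A2 109th, EGR2 155th and EGR1 537th. Both contrasts share the 3 control libraries, so their values stand side by side and likeness between them is not a result. With library totals alone in place of TMM factors, 59.8% of the knockdown calls over all genes were higher, against 49.0% as fitted.

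**Figure D3:**
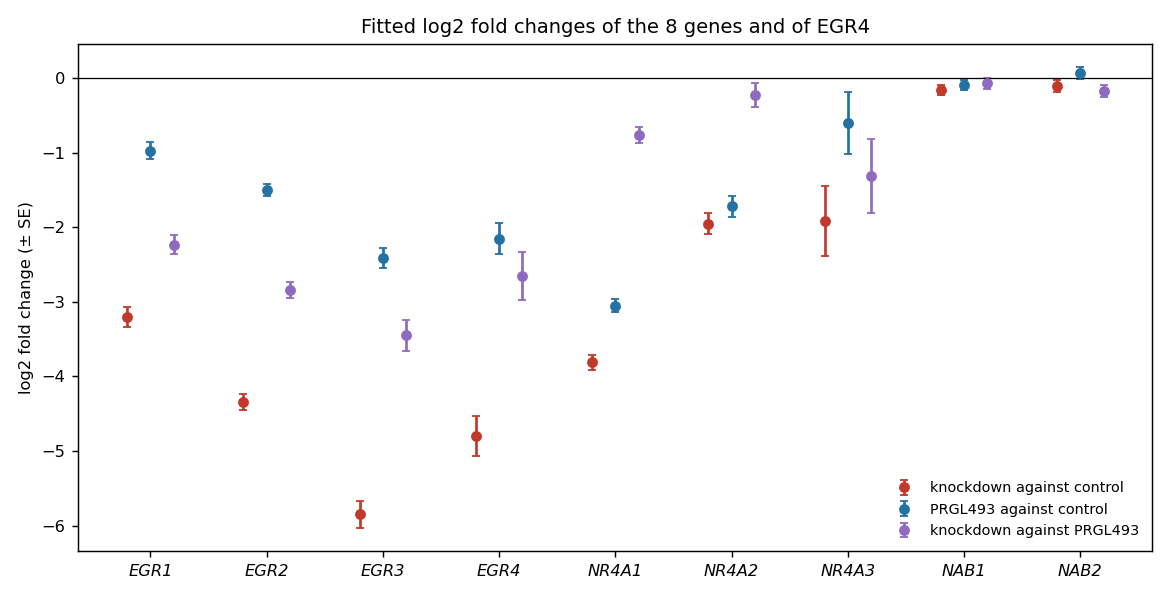
Log2 fold changes with their SE for the 8 genes and EGR4 for each treatment against control and for knockdown against PRGL493. EGR3 reaches -5.85 in knockdown, the NAB genes lie near 0, and knockdown against PRGL493 is far below 0 for EGR genes but near 0 for NR4A2.

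Knockdown and PRGL493 were also compared directly, without control libraries on either side. EGR1, EGR2 and EGR3 were lower in knockdown than with PRGL493, and NR4A1 was lower by a smaller margin. EGR1 differed by -2.23 ± 0.13 (log2, SE, edgeR adjusted p = 1.08e-06), EGR2 by -2.84 ± 0.11 (adjusted p = 6.55e-12), EGR3 by -3.45 ± 0.21 (adjusted p = 1.95e-09) and NR4A1 by -0.76 ± 0.11 (adjusted p = 2.54e-05). In all 4 genes every knockdown library lay below every PRGL493 library. The share of all genes that separate in this way was not computed, so nothing is read from that. EGR4, outside the 8, differed by -2.65 ± 0.32 (adjusted p = 4.35e-06), and by -3.29 without knockdown replicate 1. Among the 8 genes 5 were called lower and 0 higher, where 26.0% of all genes were lower and 24.4% higher. With upper-quartile factors 58.4% of the calls over all genes were higher, against 48.4% as fitted. This comparison uses the same libraries in which the genes were proposed, and its treated libraries are those of the contrasts against control, so it is not independent of them. Its sign and size follow from those contrasts, which were known when the genes were proposed. For the 8 genes and EGR4 its adjusted p-values, here and below, are therefore a description and not a test.

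The other 4 genes differed little or not firmly between knockdown and PRGL493. NR4A2 differed by -0.22 ± 0.16 (adjusted p = 0.262), with a 95% interval from -0.54 to 0.09, so a small difference in either direction remains possible. NAB1 differed by -0.07 ± 0.07 (adjusted p = 0.412, interval -0.21 to 0.07). NAB2 differed by -0.17 ± 0.08 (adjusted p = 0.098), and was called at -0.22 (adjusted p = 0.0193) without knockdown replicate 2. NR4A3 was called lower in knockdown, at -1.31 ± 0.50 (adjusted p = 0.0375), although its libraries overlapped. That call was lost without PRGL493 replicate 1 (-0.68, adjusted p = 0.356), knockdown replicate 1 (adjusted p = 0.12), knockdown replicate 2 (adjusted p = 0.0811) or control replicate 2 (adjusted p = 0.0517), with DESeq2 (adjusted p = 0.0692) and with a replicate block (adjusted p = 0.0502). Over its alternatives the adjusted p of NR4A3 ran from 0.0216 to 0.356.

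Levels can be set against each other only per length, and were divided here by the longest coding transcript in GENCODE 29. In control cells EGR1 stood at 605 ± 10.8 CPM per kb (SD, n = 3), far above NAB1 at 20.1 ± 0.182 and NR4A1 at 14.2 ± 0.258. NAB2 (7.96 ± 0.170) and EGR2 (7.75 ± 0.357) overlapped, and below them came EGR3 at 6.32 ± 0.488, NR4A2 at 1.58 ± 0.120 and NR4A3 at 0.0946 ± 0.0190. In knockdown the order changed: EGR1 (65.6 ± 12.8) was still highest, then NAB1 (17.9 ± 1.75) and NAB2 (7.45 ± 0.867), and only then NR4A1 (1.01 ± 0.101). NR4A2 (0.409 ± 0.0325) and EGR2 (0.381 ± 0.0397) overlapped there, and EGR3 (0.107 ± 0.0563) and NR4A3 (0.0250 ± 0.0135) were lowest. With PRGL493 EGR1 stood at 308 ± 14.5, and EGR2 (2.74 ± 0.0992) lay above NR4A1 (1.72 ± 0.242), the reverse of control. EGR1 made up 97.3% of the summed EGR1 to EGR4 level per kb in control, 99.1% in knockdown and 98.6% with PRGL493. NR4A1 made up 89.4% of the NR4A level in control, 70.0% in knockdown and 76.1% with PRGL493.

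Ratios taken within a library show how the balance of factor and corepressor RNA differed between groups. NAB1 plus NAB2 amounted to 4.45, 4.64 and 4.50 per 100 of EGR1 to EGR3 (counts per kb) in control libraries, 34.6, 47.7 and 35.7 in knockdown and 8.49, 8.12 and 9.64 with PRGL493. The NAB level itself was 27.8 to 28.1 CPM per kb in control libraries, 25.4 ± 0.896 in knockdown and 27.2 ± 1.24 with PRGL493 (SD, n = 3), so the ratio moved with the EGR level in the denominator. EGR3 per 100 EGR1 was 1.04 ± 0.0703 in control, 0.155 ± 0.0621 in knockdown and 0.388 ± 0.00612 with PRGL493, and EGR2 per 100 EGR1 was 1.28 ± 0.0542, 0.590 ± 0.0709 and 0.889 ± 0.0214. Relative to EGR1, both genes were lower in every treated library than in any control library. NR4A1 per 100 EGR1 ran the other way between treatments: 2.35 ± 0.0768 in control, 1.57 ± 0.214 in knockdown and 0.558 ± 0.0525 with PRGL493. NR4A2 per 100 NR4A1 was 11.2 ± 1.04, 40.5 ± 1.69 and 28.1 ± 5.13. All of these are ratios of the values described above and carry no test.

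**Figure D4:**
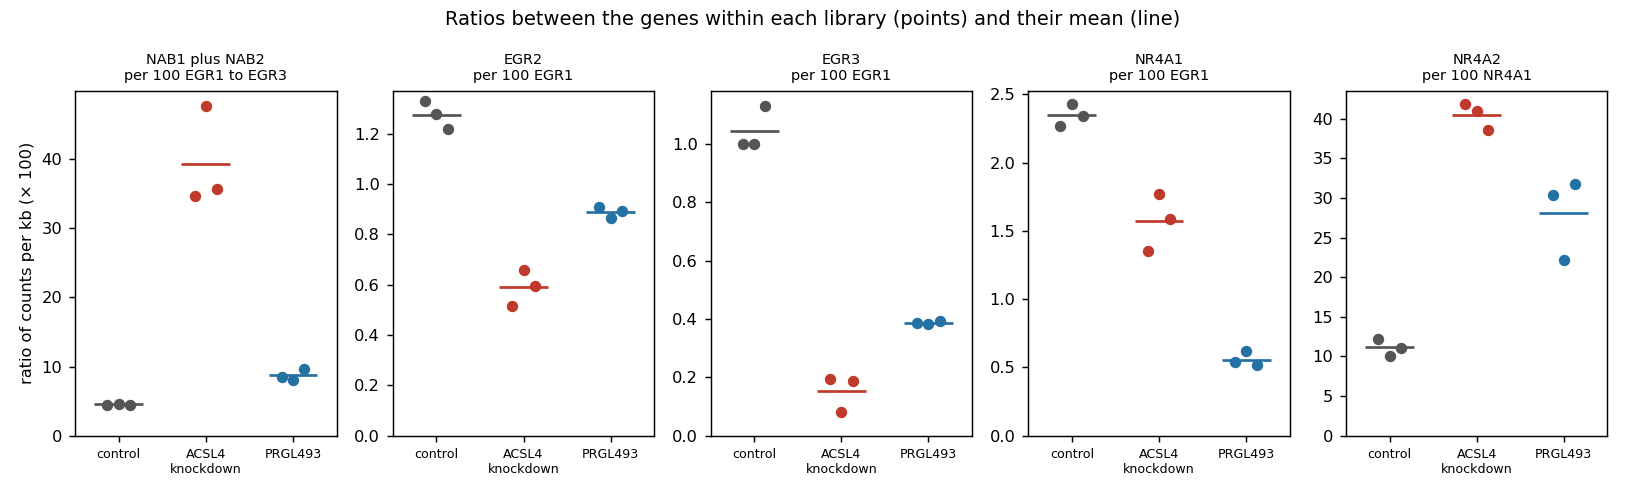
Ratios between genes within each library, from counts per kb and multiplied by 100, with points for libraries and lines for means of 3. NAB1 plus NAB2 per 100 EGR1 to EGR3 rises from 4.53 in control to 39.3 in knockdown and 8.75 with PRGL493, and NR4A1 per 100 EGR1 is lowest with PRGL493.

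The genes with the nearest pairs of log2 fold changes were looked up among 11114 genes of at least 2 log2 CPM, as a description over 3 groups. For EGR1 they were KRTAP2-3 (-3.26 in knockdown, -0.69 with PRGL493, at a distance of 0.29 log2 units), HIST2H2AA4 and DUSP1, of which KRTAP2-3 and HIST2H2AA4 have near-identical copies and uncertain counts. For EGR3 they were FOSB (-6.38 and -3.24, distance 0.98) and HES1 (-6.12 and -3.46, distance 1.08), with the third, HIST2H2BE, far off at 2.62. For EGR2 they were HIST2H2BE, DUSP1 and CTGF, at 0.87 to 1.34, and for NR4A1 CTGF, ATF3 and DUSP1, at 1.10 to 1.71. NR4A2 lay 0.15 from DUSP5 (-1.80 and -1.78), 0.24 from CXCL2 and 0.36 from GADD45A. NR4A3 lay 0.07 from IER2 (-1.93 and -0.54), then NYNRIN and BTG2. Its own fold changes have SE of 0.47 and 0.41, well above these distances, so its neighbours are not firm. NAB1 and NAB2, being near 0 in both contrasts, had their 3 nearest genes within 0.01: WDR31, TMCC2 and NEURL1B for NAB1 and PSEN2, CDC16 and SNX15 for NAB2. The other immediate early genes among these neighbours are FOSB, DUSP1, CTGF, ATF3, IER2 and BTG2, of which IER2 and BTG2 came only from NR4A3.

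Most of the other immediate early genes listed were lower in the same libraries. This list and the gene lists below were chosen with earlier results of these data known. Their counts and adjusted p-values are therefore a description and not independent support. Of 36 other immediate early genes tested, 35 fell and 0 rose in knockdown (median log2 fold change -1.27, against 0.00 over all genes), which is 97.2% lower against 15.3% of all genes, where 14.7% were higher. With PRGL493 33 fell and 2 rose (median -0.84, against 0.01), or 91.7% and 5.56% against 20.4% and 21.4%. In knockdown the firmest were CTGF, a matricellular growth factor (1895 to 211 CPM, log2 fold change -3.17 ± 0.06 SE, edgeR adjusted p = 3.93e-16), NFKBIZ (-2.63 ± 0.05, adjusted p = 6.04e-16), FOS (318 to 45.2 CPM, -2.82 ± 0.06, adjusted p = 7.51e-16) and DUSP1 (-3.27 ± 0.07, adjusted p = 2.23e-15). With PRGL493 they were CTGF (-2.15 ± 0.06, adjusted p = 5.81e-14), KLF10 (-1.70 ± 0.05, adjusted p = 8.31e-14), NFKBIZ and ATF3. The exceptions, named after their values were seen, were BTG1 in knockdown (-0.09, adjusted p = 0.23) and KLF2 with PRGL493 (-0.14, adjusted p = 0.241). JUN (410 to 577 CPM, 0.49, adjusted p = 4.64e-07) and JUND (176 to 211 CPM, 0.27, adjusted p = 0.00121) rose with PRGL493 and fell in knockdown. In knockdown against PRGL493, 27 of the 36 were lower and 5 higher (median -0.63; 75% and 13.9%, against 26.0% and 24.4% of all genes). FOS differed most firmly there (-2.34 ± 0.06, adjusted p = 1.69e-14), having fallen by 0.47 with PRGL493.

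Upstream of these promoters, most factors and kinases were not called in either contrast against control. Of 24 genes tested 6 fell and 0 rose in knockdown (median -0.09), which is 25% lower against 15.3% of all genes. With PRGL493 5 fell and 5 rose (median 0.04), and 20.8% each way is near the 20.4% and 21.4% of all genes, so that count is not a result about these genes. SRF, the factor that binds CArG boxes, fell from 135.6 ± 3.83 to 104.6 ± 3.91 CPM in knockdown (SD, n = 3; -0.38 ± 0.05 SE, edgeR adjusted p = 3.47e-05) and to 115.7 ± 1.92 CPM with PRGL493 (-0.23 ± 0.05, adjusted p = 0.00154). ELK3, a ternary complex factor, fell in both (-0.28, adjusted p = 0.000561, and -0.34, adjusted p = 5.43e-05). MEF2D and RPS6KA4 fell in knockdown (-0.26 and -0.28, adjusted p = 0.00215 and 0.00268). With PRGL493, RPS6KA2 fell (-0.42, adjusted p = 5.35e-05) while the CREB coactivators CRTC3 (0.38, adjusted p = 0.000171) and CRTC2 (0.34, adjusted p = 0.000309) rose. CRTC1 was lower in knockdown than with PRGL493 (12.1 against 21.5 CPM, -0.83, adjusted p = 1.56e-06), and in that contrast 10 of the 24 were lower (41.7%, against 26.0% of all genes) and 3 higher (against 24.4%). The 5 that rose with PRGL493 became 8 without knockdown replicate 1, 9 without knockdown replicate 2 and 9 when only control and PRGL493 libraries were fitted. In knockdown CREM, named after its values were seen, rose without knockdown replicate 3, with library totals alone and with upper-quartile factors.

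ERK outputs and feedback inhibitors were split. Of 15 tested, 8 fell and 3 rose in knockdown (median -0.27; 53.3% and 20%, against 15.3% and 14.7% of all genes). With PRGL493 5 fell and 4 rose (median 0.03; 33.3% and 26.7%, against 20.4% and 21.4%), and 7 were lower and 2 higher in knockdown against PRGL493 (46.7% and 13.3%, against 26.0% and 24.4%). The ERK phosphatases DUSP5 (588 to 168 and 171 CPM) and DUSP6 (338 to 118 and 176 CPM) fell in both, DUSP5 by -1.80 ± 0.05 and -1.78 ± 0.05 (edgeR adjusted p = 1.89e-14 and 6.42e-14) and DUSP6 by -1.52 ± 0.04 and -0.94 ± 0.04 (adjusted p = 9.08e-14 and 5.8e-11). SPRY4, which restrains the pathway, fell by -0.98 and -0.85 (adjusted p = 1.5e-09 and 7.09e-09), and IER3 by -0.70 and -0.65 (adjusted p = 4.57e-08 and 8.03e-08). DUSP6 was lower in knockdown than with PRGL493 (-0.57, adjusted p = 2.98e-08). SPRY1 (0.39, adjusted p = 0.00835), ETV5 (0.25, adjusted p = 0.00182) and PHLDA1 (0.15, adjusted p = 0.0204) rose in knockdown. Without control replicate 1 the calls of SPRY1 (adjusted p = 0.051) and PHLDA1 (adjusted p = 0.0783) were lost, and PHLDA1 also without control replicate 2 (adjusted p = 0.0835).

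A list of 10 genes held EGR4, WT1 and 8 subunits of the complex that NAB proteins recruit. Of the 10, 2 fell and 1 rose in knockdown (median 0.04; 20% and 10%, against 15.3% and 14.7% of all genes). With PRGL493 2 fell and 1 rose (median 0.00; 20% and 10%, against 20.4% and 21.4%), and 3 were lower and 3 higher in knockdown against PRGL493 (30% each, against 26.0% and 24.4%). EGR4 is 1 of those that fell in each contrast, and shares so near those of all genes are not a result about the list. WT1, a zinc finger factor related to the EGR family, rose in knockdown from 6.99 ± 0.239 to 14.5 ± 0.692 CPM (SD, n = 3; log2 fold change 1.05 ± 0.08 SE, edgeR adjusted p = 7.79e-08) and was at 7.62 CPM with PRGL493. CHD3, a remodelling subunit, fell in knockdown (-0.33, adjusted p = 0.00578). CHD4, its close relative, rose with PRGL493 (0.19, adjusted p = 0.00729) and HDAC2 fell (-0.21, adjusted p = 0.00316). The PRGL493 count of 1 higher became 2 without knockdown replicate 2 and in the fit of control and PRGL493 libraries alone. The retinoid receptors RXRA and RXRB, with which NR4A1 and NR4A2 pair, were not called in knockdown. RXRA rose with PRGL493 (82.5 to 106 CPM, 0.37, adjusted p = 5.93e-05) and RXRB too (0.18, adjusted p = 0.0282), but the RXRB call was lost without any 1 of control replicates 1, 2 and 3 or PRGL493 replicates 1 and 2 (adjusted p 0.0578 to 0.121), and with upper-quartile factors (adjusted p = 0.0571). RXRG did not pass the filter.

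Genes described as EGR targets were called in both directions. Of 25 listed, 22 were tested, and 8 fell and 3 rose in knockdown (median -0.05; 36.4% and 13.6%, against 15.3% and 14.7% of all genes). With PRGL493 11 fell and 3 rose (median -0.34; 50% and 13.6%, against 20.4% and 21.4%), and 7 were lower and 8 higher in knockdown against PRGL493 (31.8% and 36.4%, against 26.0% and 24.4%). GADD45A, a stress and growth arrest gene, fell in both (275 to 82.6 and 102 CPM; -1.74 ± 0.06 and -1.44 ± 0.06 SE, edgeR adjusted p = 3.55e-13 and 6.2e-12). TNFRSF10B (-0.46), NDRG1 (-0.42) and PLAU, the urokinase gene (-0.46), fell in knockdown with adjusted p of 1.59e-06, 7.79e-06 and 8.61e-06. F3, the tissue factor gene, fell further with PRGL493 (1429 to 724 CPM, -0.98 ± 0.04, adjusted p = 4.57e-11) than in knockdown (1138 CPM, -0.33, adjusted p = 4.11e-05), and the difference between the treatments was 0.65 ± 0.04 (adjusted p = 6.54e-09). THBS1, an angiogenesis inhibitor, fell with PRGL493 (3138 to 1683 CPM, -0.90, adjusted p = 2.56e-10) and read 3158 CPM in knockdown (0.01, adjusted p = 0.907). The difference was 0.91 ± 0.05 (adjusted p = 2.34e-10), and HPSE (1.02) and ICAM1 (0.64) were also higher in knockdown than with PRGL493 (adjusted p = 8.08e-09 and 3.9e-08). EGR1 to EGR4 ran in the other order, lower in knockdown than with PRGL493. The 3 that rose with PRGL493 became 5 without knockdown replicate 2 and in the fit of control and PRGL493 libraries alone, and the 7 lower in knockdown against PRGL493 became 4 without PRGL493 replicate 1.

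Most genes described as NR4A targets belong to other tissues, and 4 of 15 passed the filter. Of these 1 rose and 1 fell in knockdown (25% each, against 14.7% and 15.3% of all genes). With PRGL493 0 rose and 2 fell (0% and 50%, against 21.4% and 20.4%). In knockdown against PRGL493 1 was higher and 0 lower (25% and 0%, against 24.4% and 26.0%). With 4 genes these shares are coarse, and nothing is read from them. SLC2A4, the insulin-responsive glucose transporter, fell in knockdown (2.19 to 1.30 CPM, log2 fold change -0.76 ± 0.21 SE, edgeR adjusted p = 0.0106) and with PRGL493 (1.14 CPM, -0.92 ± 0.21, adjusted p = 0.00228). FBP1, of gluconeogenesis, rose in knockdown (0.27 ± 0.08, adjusted p = 0.0152), fell with PRGL493 (-0.21 ± 0.08, adjusted p = 0.041) and was higher in knockdown than with PRGL493 (0.48 ± 0.08, adjusted p = 7.88e-05). Without control replicate 3 both knockdown calls against control were lost, which left 0 higher and 0 lower. Without knockdown replicate 1 there were 2 lower, as SLC18A2, named after its values were seen, gained a call (-0.33, adjusted p = 0.0372). The FBP1 call with PRGL493 was lost without any 1 of control replicates 1, 2 and 3, knockdown replicate 3, or PRGL493 replicates 2 and 3 (adjusted p 0.0539 to 0.123).

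**Figure D5:**
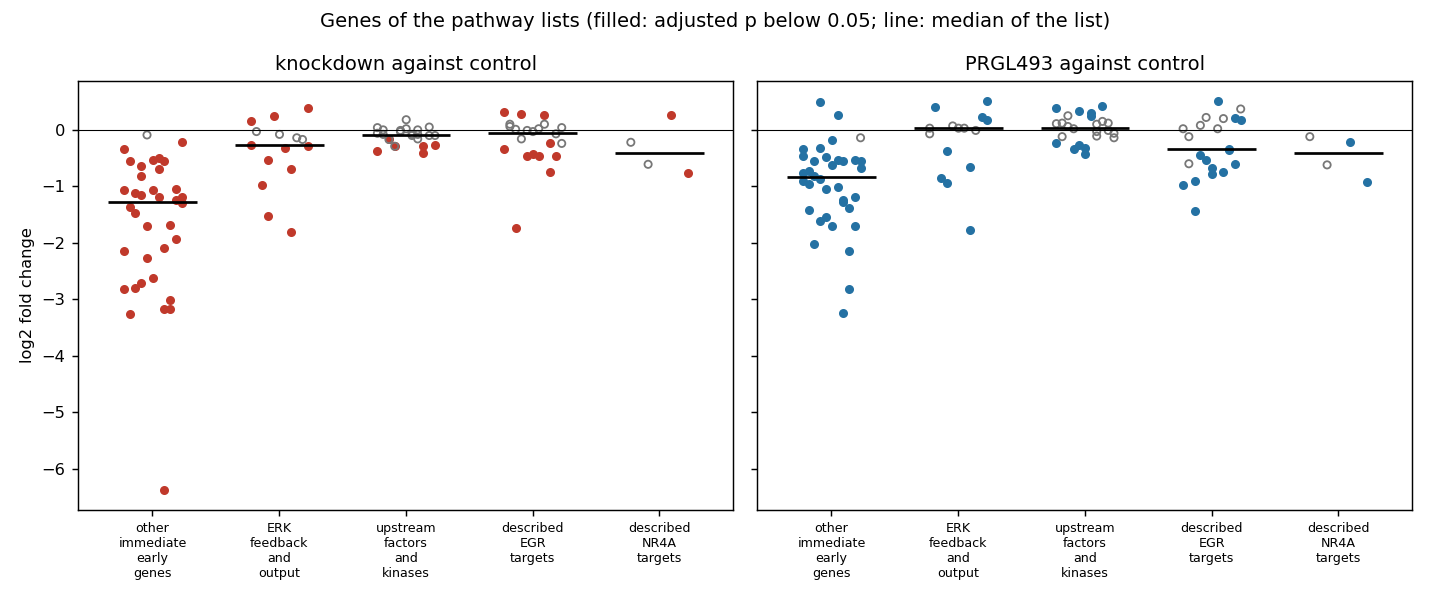
Log2 fold changes of the genes tested in 5 of the pathway lists, in knockdown against control (left) and PRGL493 against control (right), with filled points for adjusted p below 0.05, open points for the rest and a line at each list's median. Other immediate early genes lie almost wholly below 0, with medians of -1.27 and -0.84, while upstream factors and described EGR targets scatter around 0 in knockdown.

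Precision differed between the genes. The SD over 3 libraries was 1.80% of the mean for EGR1, 1.79% for NR4A1 and 0.933% for NAB1 in control, and 52.7% for EGR3 and 53.9% for NR4A3 in knockdown, where counts were lowest. Knockdown replicate 2 stood somewhat apart over all genes: its short transcripts (up to 2205 bases) deviated from the mean of the 9 libraries by a median of 0.17 and its long ones (from 5221 bases) by -0.17 on the log2 scale, against -0.07 to 0.06 in the other 8 libraries. It held the lowest value of its group for EGR1, EGR2, EGR3, NR4A1, NR4A2 and NAB1, which lie between these lengths, and its part in them was not tested. Without it the log2 fold changes against control were -3.05 for EGR1, -4.26 for EGR2, -3.74 for NR4A1 and -1.89 for NR4A2.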

How the data were processed

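The count table holds 26475 gene rows. The authors deposited estimated counts per gene and library, not scaled for depth, to judge from the values, of which 10.49% were not whole (tolerance 1e-06). They were rounded to whole numbers, although whole counts had been assumed when the test was set. The genome build was GRCh38, per the submitters' processing notes. Neither aligner nor counter, annotation or strand setting is given in the sources used here, so genes that overlap others, or have near-identical copies, are uncertain. In 28 rows the symbol had become a date (0.236% to 0.258% of counts); they stayed in totals and tests unnamed.

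Groups came from the sample titles. Genes were filtered with edgeR 4.0.16's filterByExpr (14135 kept), scaled by TMM and fitted by the quasi-likelihood model (robust, R 4.3.3) to all 9 libraries with group as the only term, leaving 6 residual degrees of freedom. Benjamini-Hochberg adjustment ran across every tested gene of a contrast, and an adjusted p below 0.05 was called. SE is the size of the log2 fold change divided by the square root of F, and 95% intervals are normal. The 8 genes and the gene lists were chosen with earlier results of these data known. All 8 genes are named, with up to 4 called genes of each list by smallest adjusted p, the 3 genes nearest in both fold changes, and others where stated. Gene positions and lengths come from GENCODE 29, promoter letters from RefSeq (GRCh38.p14). The model was tested on simulated data. Alternatives were DESeq2 1.42.0, other scalings and filters, a 2-group fit, a replicate block and leaving out each library. Replicate numbers were checked and showed no pairing through all groups.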

Additional observations from a re-analysis of the deposited data

How the results depend on the processing

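Results were recomputed under 16 alternatives: 7 other settings and 9 that left out a library. Counts of genes called and of the 8 genes called stayed within 1.5 times of the main count and no log2 fold change of the 8 genes, EGR4 or a listed gene that was called changed direction. Of 380 values for the 8 genes 372 kept their side of the threshold, 2 gained a call and 6 lost one, all of which are given beside NAB1, NAB2 and NR4A3. The cause was not tested. Of 576 counts of listed genes 32 moved by more than 1.5 times. NR4A3 had no value when at least 1 CPM in 3 libraries was required, because it did not pass, and in knockdown against PRGL493 it had none when only those groups were fitted. Same-numbered libraries of different groups correlated at -0.084 to 0.152 in their deviations, and others at -0.138 to 0.078, so no pairing ran through all groups. Between control and knockdown the same-numbered pairs were at 0.108, 0.152 and 0.062, and the others at -0.138 to 0.025. Same-numbered pairs with PRGL493 were all negative. Pairing of control with knockdown is therefore not excluded. With the replicate block 1869 genes were called higher and 2010 lower in knockdown against control, against 2083 and 2167 without it, and 2876 and 2759 against 3030 and 2879 with PRGL493. In knockdown against PRGL493 they were 3318 and 3539, against 3454 and 3676. Of the 8 genes 6, 5 and 4 were lower with the block in these contrasts, against 6, 5 and 5 without it. Upper-quartile factors made 58.7% of knockdown calls higher, against 49.0%. No scaling moved the median log2 fold change of all genes beyond -0.013 to 0.046. Depth limits EGR3, EGR4 and NR4A3, which had 4 to 28 counts per knockdown library.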
